A study of Papio anubis with 767 samples.

Results

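Peptides and G-protein signalling genes of the suprachiasmatic nuclei (SCN), the paired cell groups above the optic chiasm that pace daily rhythms, were followed over 64 tissues of the olive baboon. The genes were listed by name: the peptide precursors VIP, GRP, NMS, NMU, GAL and PROK2, the receptors VIPR2 and PROKR2, and the G-protein regulator RGS16. The table of 29202 rows holds 1 row for each of 8 of these 9 genes; PROK2 was not analysed here. Each tissue has 12 polyA RNA-seq libraries, 1 for each time from ZT0 (the start of the light phase) to ZT22 in steps of 2 h, except the iris with 11, which makes 767 libraries. They come from 12 male animals of Papio anubis hamadryas, aged 5 to 6 years, kept under a cycle of 12 h light and 12 h dark with meals at 9:00 and 15:00. One animal was taken at each time, so time of day and animal cannot be told apart in any tissue.

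SCN neurons make different peptides in different places. VIP and GRP mark the ventral neurons that receive light input from the retina, NMS marks a wide set of SCN neurons, and PROK2 is an output signal read by PROKR2. VIP acts on other SCN neurons through VIPR2, a receptor that raises cAMP and keeps their clocks together. RGS16 shortens the signal of inhibitory G proteins, and in the mouse SCN its daily rise is known to permit a rise of cAMP. VIP, GRP, NMU and GAL are also peptides of the gut wall, where enteric neurons use them on smooth muscle, glands and blood vessels.

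Levels are in FPKM (fragments per kilobase of gene, scaled to library depth), so that they can be compared between genes. Reads assigned to genes ranged from 1388699 at ZT22 to 7819808 at ZT10 over the SCN libraries, and the FPKM steps gave back whole reads for every row above 0. In the SCN, SNAP25, a gene of all neurons, lay between 73.1 and 358 FPKM, and AVP, which SCN neurons share with the magnocellular neurons of the supraoptic and paraventricular nuclei, between 2.77 and 1910 FPKM. The ZT14 library of the SCN stood apart: AVP was at 2.77 FPKM and OXT, the other magnocellular peptide, at 2.68 FPKM, against 114 FPKM or more and 35.3 FPKM or more in the other 11, and NPY, made in the arcuate nucleus, was at 291 FPKM against 62.2 FPKM or less. Results on the SCN are given without ZT14 as well where that changed a call. The dissections are bulk tissue, in which fewer cells of a type and less RNA per cell cannot be told apart.

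Libraries of other tissues also went against their labels. The 12 labelled adrenal cortex had means of 0.0637 FPKM for CYP11A1 and 0.0250 FPKM for HSD3B2, which are enzymes of steroid synthesis, but 1862 FPKM for the gastric enzyme precursor PGC and 11305 FPKM for ACTG2 of smooth muscle, so they are called the libraries labelled adrenal cortex. By the levels of 200 genes that differ between animals, all 12 SCN libraries matched the animal of their own time, whereas all 12 libraries of the stomach fundus, the duodenum, the ascending colon and the descending colon matched the animal of the time before. Marker lists set 60 of the 767 libraries apart, as holding far more or far less of a list than their tissue's median. Among them were 1 SCN library (ZT14, low in magnocellular markers), 18 of other hypothalamic areas and 5 of the gut. Some were set apart by a list of their own tissue, such as supraoptic ZT0 and ZT6, high in magnocellular markers.

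NMS (ENSPANG00000024717), the precursor of neuromedin S, was the gene of this set with its highest level in the SCN. The 12 SCN libraries ran from 3.10 FPKM at ZT14 over a median of 44.4 FPKM to 93.2 FPKM at ZT8. Their mean was 44.8 ± 26.6 FPKM (SD, n = 12), and the preoptic area came second of 64 tissues with 9.03 ± 7.49 FPKM (SD, n = 12), a ratio of means of 4.96. The SCN was higher in 11 of 12 animals, and ZT14 was the exception. ZT14 and ZT20 (6.64 FPKM) fell inside the preoptic range. The other 10 SCN libraries lay at 32.2 FPKM or more, above the highest preoptic library (25.3 FPKM). Below the preoptic area came the paraventricular nuclei (7.15 ± 7.23 FPKM), the habenula (6.90 ± 8.67 FPKM) and the pineal gland (4.79 ± 6.18 FPKM), whose order is within their spread. In the gut the means were 0.0959 to 0.732 FPKM. Liver NMS stood at 25.4 FPKM at ZT0 and 25.5 FPKM at ZT6 and at 0 in the other 10 libraries, and those same 2 libraries held the 5 neuron markers at medians of 233 and 260 FPKM.

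VIP (ENSPANG00000004077), a vasodilator and secretory peptide as well as the SCN synchroniser, was high in both the SCN and the gut. In the SCN it ran from 1.04 FPKM at ZT14 over a median of 23.7 FPKM to 79.8 FPKM at ZT8, with a mean of 26.5 ± 21.7 FPKM (SD, n = 12). That placed the SCN ninth of 64 tissues and first of 9 hypothalamic areas, where the paraventricular nuclei followed with 8.35 ± 6.58 FPKM. Among the 22 brain areas the prefrontal and visual cortex were above it, with VIP interneurons known in both. The cecum had the highest mean, 86.2 ± 52.1 FPKM, and ran from 31.6 to 212 FPKM. The libraries labelled adrenal cortex (77.6 ± 34.9 FPKM), the stomach fundus (70.8 ± 36.8 FPKM) and the ileum (66.3 ± 62.2 FPKM) did not differ from it beyond their spread. The descending colon (25.9 ± 13.3 FPKM) and ascending colon (25.2 ± 15.2 FPKM) were level with the SCN. In the gut VIP was low in the oesophagus, with 10 of 12 libraries at 0 and a mean of 0.0400 FPKM, and in the antrum. There a list of 6 SCN genes, VIP among them, summed to a median of 0.654 FPKM and to 4.76 FPKM at most.

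GRP (ENSPANG00000012397), gastrin-releasing peptide, was low in the SCN. Its SCN libraries ran from 0.611 FPKM at ZT20 over a median of 2.03 FPKM to 10.001 FPKM at ZT14, which was 160 reads there and 4 to 29 reads in the other 11. The mean of 2.71 ± 2.47 FPKM (SD, n = 12) ranked twentieth of 64 and seventh of 9 hypothalamic areas. The hippocampus led with 61.9 ± 19.997 FPKM and was above the next tissue, the thyroid (35.0 ± 19.5 FPKM), at 10 of 12 times. Within the hypothalamus the supraoptic nucleus was highest by mean (10.8 ± 10.7 FPKM), but its range of 1.02 to 36.5 FPKM overlapped that of the mammillary body (2.97 to 16.6 FPKM).

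NMU (ENSPANG00000024021), neuromedin U, shares its receptors with neuromedin S but not its tissues. It had 0 to 20 reads in the SCN libraries, with 0 reads at ZT8 and ZT22, and a mean of 1.54 ± 1.16 FPKM (SD, n = 12), rank 27 of 64. The oesophagus led with 61.0 ± 18.3 FPKM, and its lowest library (40.9 FPKM) was above the highest of the pons (35.1 FPKM), which came second with 15.6 ± 8.28 FPKM. Within the hypothalamus the lateral hypothalamus (9.64 ± 7.11 FPKM) and the preoptic area (5.78 ± 2.79 FPKM) were highest.

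GAL (ENSPANG00000023503), galanin, was high across the hypothalamus. In the SCN it ran from 3.78 FPKM at ZT14 over a median of 30.3 FPKM to 95.8 FPKM at ZT10, with a mean of 41.0 ± 27.4 FPKM (SD, n = 12) that ranked seventh of 64. The kidney medulla was first with 293 ± 205 FPKM and was above the next tissue in 12 of 12 animals. Its ZT0, ZT6 and ZT8 libraries, with GAL at 54.3, 204 and 241 FPKM, held the neuron markers at medians of 162, 262 and 198 FPKM and astrocyte and oligodendrocyte markers too. The other 9 ran from 79.4 to 815 FPKM. The 5 hypothalamic areas between them ran from the mammillary body (56.3 ± 49.7 FPKM) to the preoptic area (43.0 ± 28.9 FPKM), and these means and that of the SCN lie within each other's spread. In the gut the stomach fundus had 13.8 ± 11.8 FPKM and the oesophagus 0.302 ± 0.315 FPKM.

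Both receptors were at low levels in the SCN. VIPR2 (ENSPANG00000008527) ran from 0.252 FPKM at ZT22 over a median of 1.34 FPKM to 5.60 FPKM at ZT8, from 1 to 53 reads, and its mean of 1.74 ± 1.52 FPKM (SD, n = 12) ranked eighteenth of 64. Omental fat (11.4 ± 5.74 FPKM) and the aorta (10.2 ± 5.96 FPKM) had the highest means. VIPR2 is known in smooth muscle, and the omental fat libraries held ACTG2 of smooth muscle at a mean of 4738 FPKM. PROKR2 (ENSPANG00000000777) had 0 reads at ZT14 and ZT20 and 3 to 64 reads in the other 10 SCN libraries, with a mean of 0.806 ± 0.879 FPKM (SD, n = 12). That was rank 4 of 64, after the olfactory bulb (1.40 ± 0.317 FPKM), the hippocampus (1.36 ± 0.423 FPKM) and the habenula (0.856 ± 0.618 FPKM) and first of the 9 hypothalamic areas. PROKR2 is needed for the olfactory bulb and for reproductive neurons to form normally.

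RGS16 (ENSPANG00000004518) was first of 9 hypothalamic areas in the SCN, and sixth of 64. It ran from 1.66 FPKM at ZT14 over a median of 14.8 FPKM to 47.5 FPKM at ZT4, with a mean of 18.7 ± 12.3 FPKM (SD, n = 12). The thalamus had 500 ± 219 FPKM (SD, n = 12) and was above the habenula (177 ± 136 FPKM) in 11 of 12 animals. One thalamus library, ZT4, was at 1.63 FPKM, whereas the other 11 lay between 269 and 745 FPKM. Outside the brain the kidney cortex (63.5 ± 52.7 FPKM) and the liver (29.1 ± 15.4 FPKM) were highest, and the 8 gut tissues were at 0.630 to 2.26 FPKM.

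**Figure D1:**
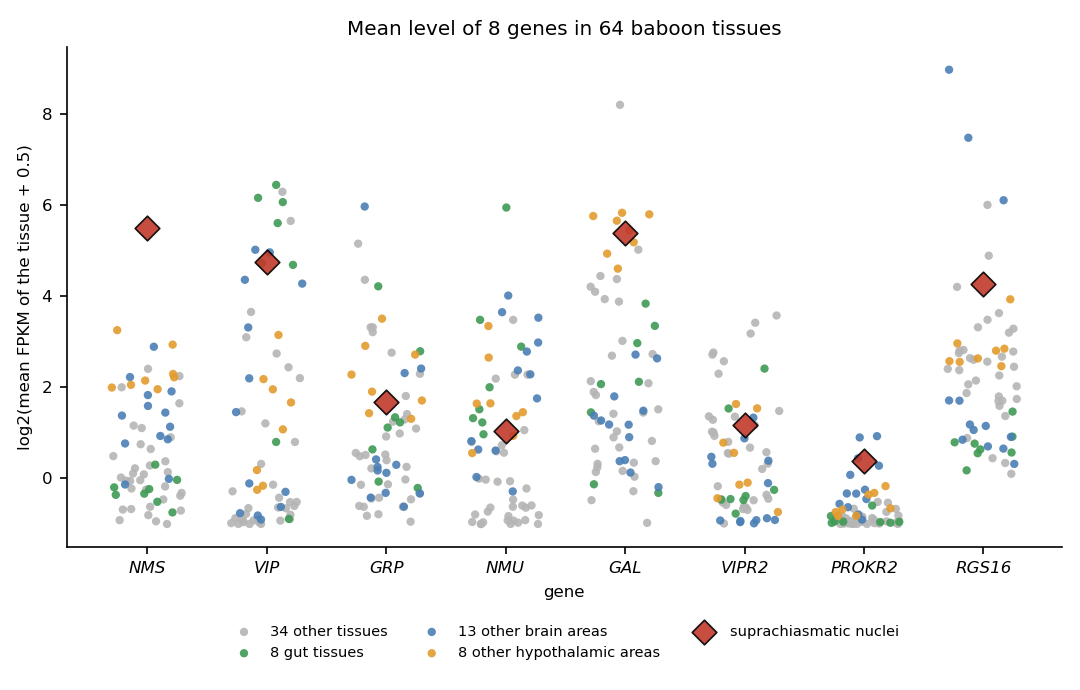
Each point is the mean of a tissue's libraries, as log2(mean FPKM + 0.5) on the vertical axis, for the 8 genes on the horizontal axis; colours mark the class of tissue and the diamond the SCN. The diamond is the highest point for NMS alone, and for VIP, GAL, PROKR2 and RGS16 it lies among the first 9 of 64 tissues.

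The SCN was next compared with the mean of the 8 other hypothalamic areas in the same animal, on log2(FPKM + 0.5), by limma with Benjamini-Hochberg adjustment over 13479 genes. VIP, NMS, RGS16 and VIPR2 were higher in the SCN and NMU was lower. These were 5 of the 7 genes tested, against 52.8% of all genes (21.2% higher and 31.6% lower), so the count is near the background. The median difference of all genes was -0.05 on the log2 scale.

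VIP was higher by 3.31 ± 0.33 on the log2 scale (SE, n = 12), 9.90-fold, in 12 of 12 animals (adjusted p = 1.25e-06, limma). NMS was higher by 3.11 ± 0.36 (SE), 8.62-fold, in 11 of 12 animals (adjusted p = 4.36e-06, limma). RGS16 was higher by 1.53 ± 0.23 (SE), 2.90-fold, in 11 of 12 animals (adjusted p = 5.56e-05, limma). In ZT14 the VIP difference was 0.17, that of NMS -0.43 and that of RGS16 -0.61, so this library did not share the elevation. VIPR2 was higher by 0.73 ± 0.22 (SE) in 10 of 12 animals (adjusted p = 0.0109, limma).

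NMU was lower in the SCN by -0.71 ± 0.20 on the log2 scale (SE), and higher in 1 of 12 animals (adjusted p = 0.00756, limma), and missed the threshold after quantile scaling (adjusted p = 0.0667) or scaling to the same sum (adjusted p = 0.0501). GRP, with a difference of -0.39 ± 0.19 (SE), missed it over 12 animals (adjusted p = 0.102, limma) and was lower by -0.54 without ZT14 (adjusted p = 0.00789, limma). GAL differed by 0.18 ± 0.29 (SE), with a 95% interval of -0.46 to 0.83, and was higher in 6 of 12 animals. PROKR2 was below the filter of 1 FPKM; with a filter of 0.1 FPKM its difference was 0.76 ± 0.20 (SE; adjusted p = 0.00494, limma).

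**Figure D2:**
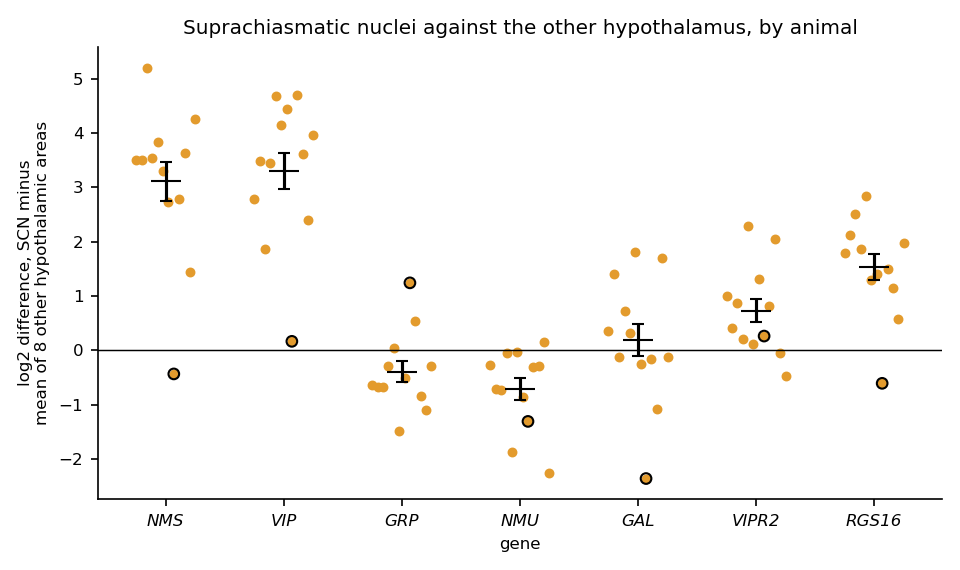
Each point is 1 animal's log2 difference, SCN minus the mean of the 8 other hypothalamic areas, for 7 genes; bars are the mean ± SE of the fit and the open ring marks ZT14. The points of NMS, VIP and RGS16 lie above 0 apart from the ringed ones of NMS and RGS16, while those of GAL fall on both sides.

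Against each of the 8 areas alone, VIP and NMS were higher in the SCN in all 8 fits, by 1.53 to 4.49 for VIP and 2.36 to 3.70 for NMS on the log2 scale. Of all genes, 8.42% were called against the preoptic area (3.56% higher in the SCN, 4.86% lower), 9.31% against the paraventricular nuclei (7.5% and 1.81%) and 14.1% against the dorsomedial hypothalamus (3.41% and 10.7%). The shares were 47.1% against the mammillary body (11.8% and 35.3%), 56.5% against the supraoptic nucleus (25.8% and 30.7%) and 61.5% against the arcuate nucleus (15.3% and 46.3%). They were 61.8% against the ventromedial hypothalamus (18.7% and 43.2%) and 70.8% against the lateral hypothalamus (36.6% and 34.3%). The smallest VIP difference was that against the paraventricular nuclei (1.53 ± 0.34, SE; adjusted p = 0.0189, limma), and the call was lost without pairing by animal (adjusted p = 0.151). The smallest NMS difference was that against the preoptic area (2.36 ± 0.56, SE; adjusted p = 0.0208, limma), with an adjusted p of 0.0549 without ZT18. RGS16 was higher against all 8 areas, by 1.25 to 2.00, but the call against the dorsomedial hypothalamus (adjusted p = 0.0460, limma) was lost in 14 of its 22 alternatives, with an adjusted p of up to 0.309. That area had 1 library at 124 FPKM, ZT20, and a median of 3.42 FPKM.

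GRP was lower in the SCN than in the supraoptic nucleus (-1.43 ± 0.40, SE; adjusted p = 0.00696, limma), the mammillary body (-1.35 ± 0.27; adjusted p = 0.00144) and the arcuate nucleus (-1.07 ± 0.31; adjusted p = 0.00789), the last of which was not called after quantile scaling (-0.39, adjusted p = 0.304). NMU was lower than in the lateral hypothalamus (-2.27 ± 0.30, SE; adjusted p = 8.69e-06, limma) and the preoptic area (-1.76 ± 0.24; adjusted p = 0.00215), in 12 of 12 animals each. GAL passed the threshold against none of the 8 areas, with differences of -0.37 to 0.85; against the supraoptic nucleus it was higher without ZT14 (1.41, adjusted p = 0.000882). VIPR2 was higher than in 3 of the 6 areas tested, among these most against the lateral hypothalamus (1.33 ± 0.34, SE; adjusted p = 0.00238, limma). Against the preoptic area and the paraventricular nuclei it missed the filter of 1 FPKM. With a filter of 0.1 FPKM VIPR2 was higher by 1.67 ± 0.24 (SE, adjusted p = 0.00280, limma) and 1.41 ± 0.25 (adjusted p = 0.0114), in 12 of 12 animals each. VIPR2 was lower than in the arcuate nucleus (-0.64 ± 0.24; adjusted p = 0.0320, limma), where it passed in 14 of 21 alternatives and quantile scaling turned the difference to 0.12. The call against the supraoptic nucleus, 1 of the 3, was lost in 11 of 21 alternatives, with an adjusted p of up to 0.0871, and that against the dorsomedial hypothalamus in 1 of 19.

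Against the mean of 13 brain areas outside the hypothalamus, where 42.7% of 13027 genes were called (21.4% higher and 21.2% lower in the SCN), all 7 genes tested passed. NMS was higher by 4.26 ± 0.41 (SE) and GAL by 4.17 ± 0.33 on the log2 scale, both in 12 of 12 animals (adjusted p = 8.84e-07 and 1.27e-07, limma). VIP was higher by 2.62 ± 0.38 in 11 of 12 animals, and NMU lower by -0.96 ± 0.27, the latter not called after scaling to the same sum (adjusted p = 0.399). RGS16 was higher by 1.60 ± 0.29 and GRP by 0.79 ± 0.21 as means of log2 values, although the mean FPKM of the 13 areas was above that of the SCN for both (58.6 against 18.7 FPKM for RGS16, with the thalamus, and 5.86 against 2.71 FPKM for GRP, with the hippocampus).

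Against the mean of the 8 gut tissues, 81.2% of 13884 genes were called (37% higher and 44.3% lower in the SCN). Pairing here was by labelled time, since the stomach fundus, duodenum and colon libraries matched the animal of the time before. NMS (5.45 ± 0.36, SE), GAL (3.46 ± 0.33) and RGS16 (3.28 ± 0.28) were higher in the SCN at 12 of 12 labelled times (adjusted p of 7.94e-08 or less, limma). NMU was lower (-1.40 ± 0.29, SE; adjusted p = 0.000326, limma), with the oesophagus (61.0 FPKM) and duodenum (10.6 FPKM) highest in the gut. VIP did not pass, with 0.22 ± 0.39 (SE) and a 95% interval of -0.65 to 1.08. Its mean FPKM was 26.5 in the SCN and 40.5 over the gut tissues. Without the libraries matching another animal VIP was higher in the SCN by 1.32 (adjusted p = 0.00753, limma). That setting left only the oesophagus, antrum, ileum and cecum in the gut, and VIP was low in the oesophagus and antrum.

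Along the gut, the large intestine (cecum and colon) was compared with the small intestine (duodenum and ileum). Of 12360 genes 66.9% were called (42.2% higher and 24.6% lower in the large intestine). Pairing was by labelled time, since the colon and duodenum libraries matched the animal of the time before. NMU was lower in the large intestine by -1.37 ± 0.15 on the log2 scale (SE, adjusted p = 2.72e-06, limma), and higher at 0 of 12 labelled times. GRP was lower by -1.23 ± 0.25 (SE; adjusted p = 0.000502, limma), and its ileum value at ZT0, 44.8 FPKM, came from a library that held neuron and oligodendrocyte markers. VIP was lower by -0.49 ± 0.13 (SE; adjusted p = 0.00400, limma), but the direction turned to 0.49 (adjusted p = 0.224) in the cecum and ileum alone, the only ones left without libraries matching another animal. GRP there was lower by -0.91 (adjusted p = 0.118), while NMU passed in all 22 of its alternatives (-1.59 to -1.001).

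Over time in the SCN, none of the 7 genes tested passed the adjusted threshold for a 24 h rhythm (limma, cosine and sine, 12503 genes). Of all genes 0.008%, which is 1 gene, passed, and of the 7 only RGS16 had an unadjusted p under 0.05. Simulated rhythms of 1.5 on the log2 scale, planted with independent noise in 200 of 12503 genes, were recovered at 81%, so that smaller rhythms would be missed more often. The 81% is an average over genes of unlike spread, with more genes passing than the 1 of the real libraries. It therefore does not give the rate at which rhythms of these 7 genes would be found.

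RGS16 was at 26.1, 28.4 and 47.5 FPKM at ZT0, ZT2 and ZT4, at 16.02 and 25.8 FPKM at ZT6 and ZT8, and at 11.1 FPKM at both ZT10 and ZT12. It was at 1.66, 12.2, 7.55, 13.6 and 23.3 FPKM from ZT14 to ZT22. The 3 highest values were thus the first 3 of the light phase, and the lowest were those of ZT14 and ZT18 in the night. The fitted amplitude was 1.26 ± 0.26 on the log2 scale (SE, n = 12), 5.76-fold from trough to peak, with the peak at ZT2.6 (p = 0.00120, adjusted p = 0.0991, limma). Of 100000 random orders of the 12 libraries, a fraction of 0.00124 fitted as well (permutation test, two-sided, not adjusted for the number of genes). Without ZT14 the amplitude was 0.92 (adjusted p = 0.124). Marker lists of the same libraries also varied with time. The magnocellular list had an amplitude of 1.98 with its peak at ZT1.4, and the oligodendrocyte list one of 1.15 with its peak at ZT5.6. Their r with RGS16 was 0.767 and 0.758 over the 12 libraries, and 0.301 and 0.502 without ZT14. The neuron list had r = 0.718, and 0.143 without ZT14. Their part in the RGS16 result was not tested.

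**Figure D3:**
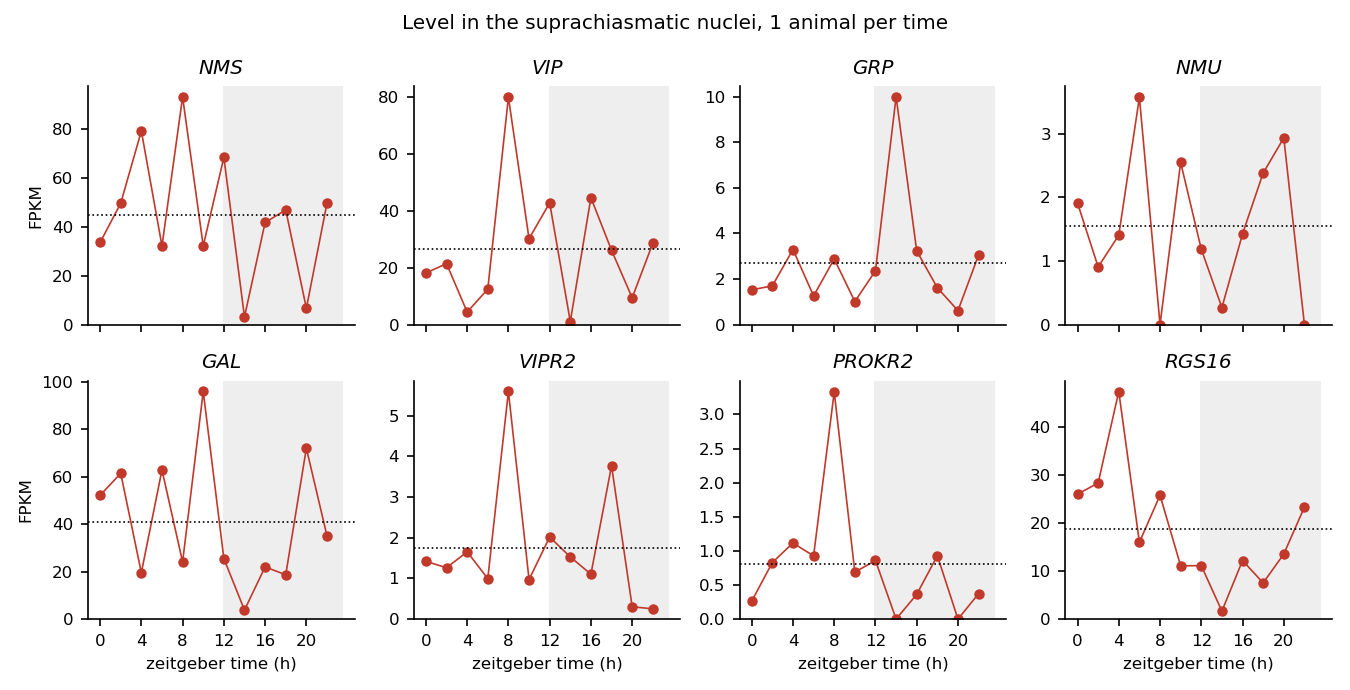
FPKM in the 12 SCN libraries (vertical axis, from 0) against zeitgeber time (horizontal axis, h), 1 animal per point, with the night in grey and the mean dotted. RGS16 is high from ZT0 to ZT4 and lowest at ZT14, and NMS, VIP, GAL and RGS16 share their lowest value at ZT14.

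In the other hypothalamic areas RGS16 also led at the end of the night and in the early light phase. Its geometric mean over the 8 areas was 7.16, 6.10 and 7.93 FPKM at ZT0, ZT2 and ZT4, 2.78 to 4.25 FPKM from ZT6 to ZT18, and 8.87 and 5.57 FPKM at ZT20 and ZT22. The ZT20 value holds the dorsomedial library at 124 FPKM. The amplitude was 0.52 ± 0.13 on the log2 scale (SE), 2.05-fold, with the peak at ZT0.3 (adjusted p = 0.0950, limma, 0.499% of 14021 genes called). Over 63 tissues the amplitude was 0.21 ± 0.05 (SE), 1.34-fold, with the peak at ZT1.5 (adjusted p = 0.0107, limma), among 63.1% of 12055 genes called. The body-wide call was lost once the first shared axis of the libraries, which carried 31.0% of the variance of 12142 genes, entered as a covariate (adjusted p = 0.211, limma). The score on this axis itself followed time, with means of 0.988 at ZT6 and -1.03 at ZT22. A fit with it therefore cannot tell the axis and a 24 h rhythm apart, and 21 genes in all were called. A 24 h curve fitted to the per-animal difference, SCN minus other hypothalamus, had an amplitude of 0.89 ± 0.25 (SE). This amplitude holds differences in both size and peak time, and it missed the threshold (p = 0.0112, adjusted p = 0.740, limma). In that fit 0% of 13479 genes, that is 0, passed, and 779 had an unadjusted p under 0.05.

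**Figure D4:**
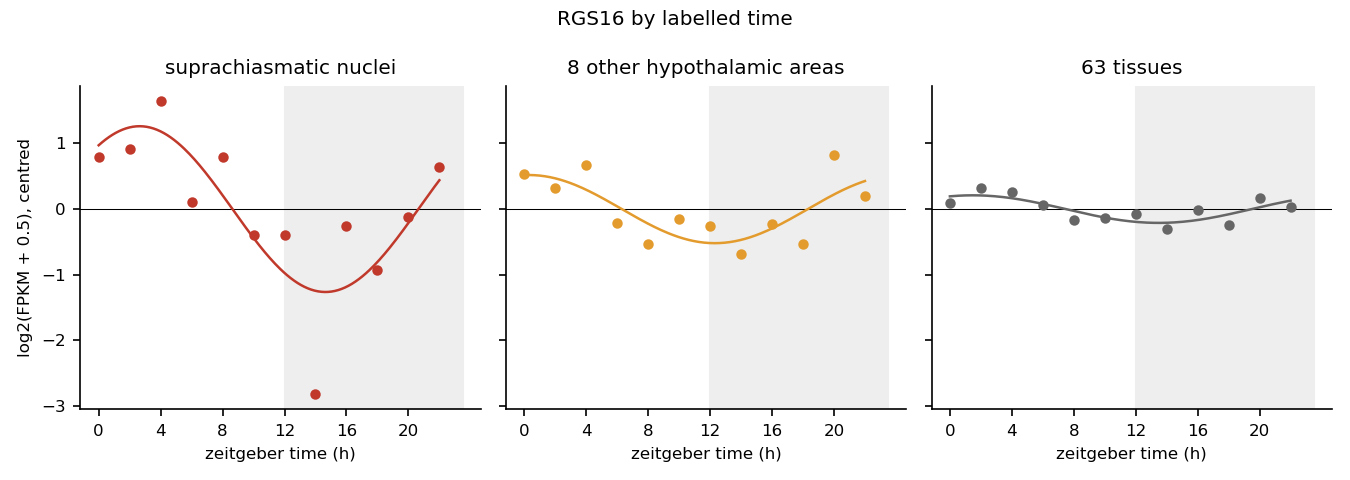
RGS16 as log2(FPKM + 0.5), centred on the mean, against zeitgeber time (h) in the SCN, the mean of 8 other hypothalamic areas and the mean of 63 tissues; points are labelled times, lines the fitted 24 h curve and grey the night. The fitted amplitudes are 1.26, 0.52 and 0.21, with peaks from ZT0.3 to ZT2.6.

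NMS had no clear time course in the SCN (amplitude 0.88 ± 0.46, SE; peak ZT5.0; p = 0.206, adjusted p = 0.430, limma). In the other hypothalamic areas its geometric mean was highest at ZT12, 9.88 FPKM, with 6.07 FPKM at ZT8 and 1.67 FPKM at ZT4, and the amplitude was 0.61 ± 0.19 (SE; peak ZT12.5; p = 0.0213, adjusted p = 0.152, limma). VIP in the SCN had an amplitude of 0.22 ± 0.58 (SE; p = 0.931), while its libraries differed from 1.04 to 79.8 FPKM, and GAL one of 0.79 ± 0.40 (p = 0.182). PROKR2, followed with a filter of 0.1 FPKM, had an amplitude of 0.73 ± 0.25 with its peak at ZT6.9 (p = 0.0360, adjusted p = 0.267, limma).

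In the gut GAL had a 24 h rhythm. The geometric mean over the 8 tissues was 1.49 FPKM at ZT0, 2.84 and 2.74 FPKM at ZT2 and ZT4, and 4.58, 4.89 and 4.22 FPKM at ZT6, ZT8 and ZT10. It was 2.33 and 2.93 FPKM at ZT12 and ZT14 and fell over 1.76 and 1.59 FPKM to 1.22 and 1.27 FPKM at ZT20 and ZT22. The 3 highest values were the 3 times in the second part of the light phase. The amplitude was 0.75 ± 0.09 on the log2 scale (SE, n = 12), 2.83-fold, with the peak at ZT8.1 (adjusted p = 0.00113, limma), where 45.6% of 12912 genes were called. The call stood in 29 of 30 alternatives, among them those without each labelled time, each gut tissue and the libraries matching another animal (amplitude 0.62). It was lost with the shared axis, which followed time itself, as covariate (0.67, adjusted p = 0.218, limma). With that covariate 20 genes in all were called. The smooth muscle markers of the same libraries, DES and ACTG2, moved alike: their mean level had an amplitude of 0.89 and a peak at ZT8.1, from -1.11 at ZT22 to 1.22 at ZT6 around their mean (log2), and their summed level ran from 5.20 to 24518 FPKM over the gut libraries. Enteric neuron markers had an amplitude of 0.20 and a peak at ZT6.4. Their part in the GAL result was not tested.

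**Figure D5:**
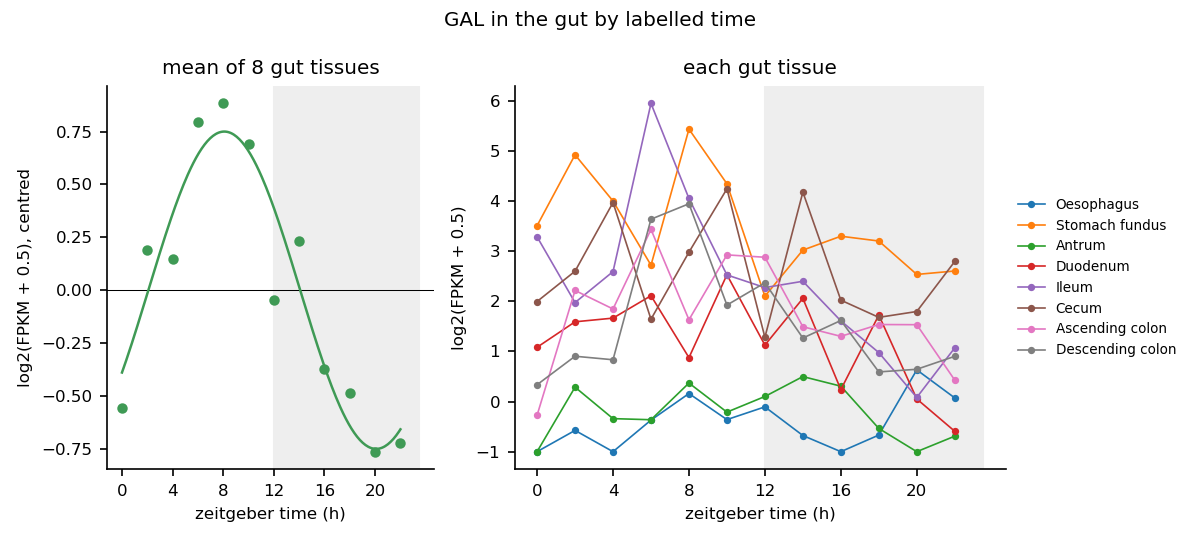
GAL against labelled zeitgeber time (h), night in grey: left, the mean of 8 gut tissues as centred log2(FPKM + 0.5) with the fitted 24 h curve; right, each tissue as log2(FPKM + 0.5). The mean is highest from ZT6 to ZT10, and the highest single library is ileum at ZT6 with 61.2 FPKM. In 4 of the 8 tissues the libraries matched the animal of the time before their label.

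The single tissues showed this less evenly. Ileum GAL was at 61.2 FPKM at ZT6 and 0.558 FPKM at ZT20 (amplitude 1.67 ± 0.37, SE; peak ZT6.8; adjusted p = 0.0210, limma), stomach fundus GAL was highest at ZT8 (42.7 FPKM) and cecum GAL at ZT10 (18.4 FPKM). The other 5 gut genes tested for time, VIP, GRP, NMU, VIPR2 and RGS16, did not pass. GRP was called without ZT0 (amplitude 0.41, adjusted p = 0.00812, limma) or without the 5 gut libraries set apart by markers (0.37, adjusted p = 0.0438), with an amplitude of 0.03 without the libraries matching another animal.

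Over 63 tissues GAL had an amplitude of 0.40 ± 0.09 (SE), 1.73-fold, with the peak at ZT5.9 (adjusted p = 0.00724, limma). With the shared axis, which followed time itself, as covariate the amplitude was 0.04 (adjusted p = 0.998, limma). Tissue by tissue, GAL had an unadjusted p under 0.05 (limma) in 19 of 48 tissues and RGS16 in 6 of 57, against 23.6% of all gene and tissue pairs. Of the 19 GAL tissues 15 had a peak in the light phase, and the share of such peaks over all genes was not counted. The tissues come from the same 12 animals and do not repeat the result independently. After adjustment 9 of 258 pairs of these genes and a tissue were called, 3.49%, against 6.56% of all pairs. GAL gave 5 of the 9: the paraventricular nuclei (20.9% of all genes called there), ileum (27.5%), kidney cortex (14.5%), gastrocnemius (20.5%) and abdominal muscle (6.68%). In the paraventricular nuclei GAL stood at 192 FPKM at ZT0, 48.1 FPKM at ZT2 and 3.05 FPKM at ZT12 (amplitude 1.89 ± 0.33, SE; peak ZT2.2; adjusted p = 0.0104, limma), with an adjusted p of 0.0556 without libraries set apart by markers.

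VIP in omental fat, where 37.7% of all genes were called, was the widest of these 9, with 0 to 0.237 FPKM from ZT0 to ZT6 and 18.3 to 123 FPKM from ZT8 on. The smooth muscle markers had medians of 4.70 to 30.1 FPKM in those first 4 libraries against a tissue median of 3461 FPKM. Without the libraries set apart by markers the VIP amplitude was 0.28 (adjusted p = 0.347), and GRP there, also called, went to 0.94 (adjusted p = 0.348). GRP in the antrum (5.75% of all genes called) and VIPR2 in the heart (42.4%) made up the 9. Leaving out 1 animal at a time gave 3 to 12 called pairs in all. The GAL call was lost in 12 of 15 alternatives in the kidney cortex, 10 of 14 in the abdominal muscle, 6 of 14 in the gastrocnemius, 3 of 15 in the ileum and 2 of 15 in the paraventricular nuclei. GRP was no longer called in 8 of 15 in the antrum, and VIPR2 in 9 of 14 in the heart. In omental fat VIP passed in 13 of 15 and GRP in 3 of 15.

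Over the 12 SCN libraries, 21 pairs of the 7 genes were correlated on log2(FPKM + 0.5), and 1 pair passed. GAL and GRP ran against each other, with Pearson r = -0.906 (permutation p = 0.000280, adjusted p = 0.00588) and Spearman rho = -0.811 (permutation p = 0.00221, adjusted p = 0.0464). The 3 libraries with the most GAL, ZT10 (95.8 FPKM), ZT20 (71.9 FPKM) and ZT6 (62.8 FPKM), had GRP of 1.01, 0.611 and 1.26 FPKM, and ZT14, with the least GAL, had the most GRP. Without the 2 libraries farthest from the median of GRP r was -0.769, and without ZT14 it was -0.786. Among the marker lists, the arcuate markers had r = -0.559 with GAL over the 12 libraries and 0.798 over the 11 without ZT14. The magnocellular markers had r = 0.838 and 0.563 without ZT14, and the enteric neuron markers, genes of neurons at large, 0.900 and 0.768. The neuron markers had 0.649 and -0.0155. Their part in the result was not tested. VIP and NMS had r = 0.707 (adjusted p = 0.0873, permutation) and 0.373 without ZT14.

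The wider pathway was followed in a list of 76 genes, 72 of them in the table. Against the other hypothalamus 33 of the 58 tested passed (adjusted p under the threshold, limma), 19 higher and 14 lower in the SCN, with a list median of 0.11 beside -0.05 over all genes. The share is close to the 52.8% of all genes. Among related peptides and receptors, AVP was higher by 2.01 ± 0.42 on the log2 scale (SE), PENK, the enkephalin precursor, by 1.14 ± 0.29 and the vasopressin receptor AVPR1A by 1.18 ± 0.19. PENK had higher mean FPKM in the paraventricular nuclei (332 FPKM) and the preoptic area (273 FPKM) than in the SCN (245 FPKM). For AVP the mean FPKM was the other way round (642 in the SCN and 2905 over the other areas), with 16968 ± 40684 FPKM in the supraoptic nucleus. GHRH (-3.25 ± 0.26) and GALP (-1.67 ± 0.42), both made in the arcuate nucleus, were lower, with GHRH at 0.508 FPKM in the SCN against 121 FPKM in the arcuate nucleus.

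Of the G-protein genes, GPR176, an orphan receptor known from the SCN clock of the mouse, was higher by 1.06 ± 0.17 (SE) in 11 of 12 animals, with 6.34 ± 3.11 FPKM in the SCN. RGS genes were split, 3 higher and 5 lower of 16 tested beside 21.2% higher and 31.6% lower over all genes, so the family had no common direction. RGS11 was lower (-1.37 ± 0.15). Its mean was 5.00 FPKM in both the SCN and the preoptic area, 2.65 FPKM in the paraventricular nuclei and 7.54 to 55.5 FPKM in the other areas. The developmental factors of the SCN had 5 of 7 higher and none lower, beside the same 21.2% and 31.6% of all genes, LHX1 by 1.06 ± 0.30 with 6.35 ± 3.67 FPKM in the SCN, although the lateral hypothalamus had a higher mean (9.39 ± 12.2 FPKM). PER1, a clock and light-response gene, was lower by -1.33 ± 0.10 (SE) against the mean of the other areas, in 12 of 12 animals. Its mean was 3.01 FPKM in the SCN and 3.59 ± 4.64 FPKM in the paraventricular nuclei. It was 4.59 FPKM in the preoptic area, 4.69 FPKM in the dorsomedial hypothalamus and 9.39 to 18.5 FPKM in the other areas. By median the paraventricular nuclei were below the SCN (2.33 FPKM), so PER1 was not lower in the SCN than in every area. No gene of the list passed for a 24 h rhythm in the SCN (0 of 58).

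In the gut 17 of 41 tested passed for a 24 h rhythm, near the 45.6% of all genes, with a median amplitude of 0.26 beside 0.23. PER1 (amplitude 1.31 ± 0.11, SE; peak ZT3.7) and PER2 (0.94 ± 0.07; peak ZT3.9) had the largest amplitudes of the list. The VIP receptor VIPR1 (0.45 ± 0.09, peak ZT6.9), PENK (0.52 ± 0.12, peak ZT8.1), RGS14 (0.75 ± 0.11, peak ZT6.9) and RGS19 (0.69 ± 0.15, peak ZT7.0) peaked within 2 h of GAL. So did the subunits and cyclases GNAS, GNA11, GNAI2, ADCY5, ADCY6 and ADCY7 and also RGS3 (peaks ZT6.3 to ZT8.1), while GNAO1 peaked at ZT4.7. GNAI3, RGS1 and RGS18 peaked at ZT18.2 to ZT19.6. How many of all genes called in the gut peaked near GAL was not counted.

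The genes whose tissue means were most like those of each member were found by Pearson r over 64 tissue means of log2(FPKM + 0.5), as a description. For NMS they were GFAP of astrocytes (0.82), the serotonin receptor HTR2C (0.81) and RSPH1 of motile cilia (0.81). For VIP they were HTR4 (0.73), KRT20 (0.67) and ERN2 (0.64), and for GAL they were CALCR (0.69), OXT (0.66) and ARHGAP36 (0.66). VIPR2 was most like RBPMS2 (0.71), LAMA4 (0.70) and TEAD2 (0.70), PROKR2 most like B3GAT2 (0.79), DCC (0.76) and CDH9 (0.75), and RGS16 most like CHRNA2 (0.63), SHOX2 (0.55) and NTNG1 (0.53). For NMU the nearest were MFSD2A (0.64), KCNK10 (0.63) and ENDOU (0.63), and for GRP they were NPY2R (0.55), TRPC6 (0.51) and FGF10 (0.50). Between members the highest r was that of NMS and PROKR2 (0.59).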

How the data were processed

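PolyA RNA-seq of 64 tissues was read as FPKM, deposited as 1 table of 29202 rows; STAR, featureCounts and DESeq2 appear in the submitters' processing notes. What each did, in which version and on which build is not given in the sources used here. The FPKM values made by the authors came out as whole reads, within 0.01 read, for 100% of 26546 rows above 0. Reads assigned to genes were at least 32790 per library; 0 columns were left unmapped.

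Levels are means ± SD of FPKM. Comparisons used limma 3.58.1 in R 4.3.3 (trend) on log2(FPKM + 0.5), for genes averaging at least 1 FPKM, with Benjamini-Hochberg adjustment over all genes tested and a threshold of 0.05. A fold change on this scale understates the change of low genes. Levels were compared as differences within the labelled animal, since libraries of 1 time come from 1 animal per the labels. The 24 h rhythm was a moderated F test of a cosine and a sine; gut, hypothalamus and body were centred tissue means, 1 value per labelled time. Correlations and permutation tests used scipy 1.17.1 with 100000 orders. The fits were tested on simulated data. A library was set apart by markers when its median of a marker list was at least 20-fold above or below the tissue's median. The higher of these values had to reach 10 FPKM. Every list was applied to every tissue, so a library could be set apart by a list of its own tissue.

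Named genes are all members with a row, the 3 genes most like each over tissues (5 FPKM or more in some tissue), and pathway genes called in the SCN against the other hypothalamus with a log2 difference of 1 or more, or for a rhythm in SCN or gut. The members and lists were chosen with earlier results of these data known. Alternatives were other pseudocounts, filters and scalings, leaving out animals, tissues and doubtful libraries, no pairing by animal, and the first shared axis of the libraries as covariate. Those without libraries matching another animal, those without libraries set apart in the level and single-tissue fits, and leaving out animals in single tissues were added after seeing the data.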

Additional observations from a re-analysis of the deposited data

How the results depend on the processing

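Of 2559 alternatives over 120 results on single genes, permutation tests not counted, 2428 stayed on their side of the threshold. Another 106 lost the call, 19 gained one and 6 turned direction. Direction was compared only where the main fit or the alternative was called. Uncalled results that changed sign are thus among the 2428, such as GAL against the preoptic area (-0.24 to 0.74 over its alternatives). With a filter of 5 FPKM, which tests fewer genes, the genes called went from 5 to 3 against the other hypothalamus, from 7 to 4 against the other brain and from 2 to 0 over the body. With the shared axis, which followed time itself, as covariate they went to 0 in the gut rhythm, 0 over the body and 1 of the single-tissue pairs (from 1, 2 and 9). The gut rhythm had 2 without libraries set apart by markers, and the large against the small intestine 1 without libraries matching another animal, where 2 of 5 tissues remain. Leaving out 1 animal at a time gave 5 to 6 genes against the other hypothalamus, 6 to 7 against the other brain, 5 against the gut, 3 along the intestine, 30 to 37 against single areas (34 with all animals), 0 in the SCN and other hypothalamus rhythms and in their difference, 1 to 2 in the gut, 2 over the body and 3 to 12 single-tissue pairs. Without the replicate block, that is without pairing by animal, 29 calls against single areas were left of 34, and the counts against the other hypothalamus (5), other brain (7), gut (5) and along the intestine (3) stood. The 6 turned values were VIP along the intestine (0.49), NMU (0.0013) and VIPR2 (0.12) against the arcuate nucleus after quantile scaling, GAL over the body with the axis (0.0437), and VIP (0.28) and GRP (0.94) in omental fat without libraries set apart by markers; apart from the smaller sets, the cause was not tested.

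Scaling moved the balance of all genes: 40.1% of calls against the other hypothalamus were higher in the SCN, 62.7% after quantile scaling and 60.2% at the same sum (median shifts of 0.19 and 0.18), and against the other brain 50.3% became 95.8% at the same sum (0.84). Along the intestine 63.2% became 50.7% and 86.9%. All-gene counts ranged from 4773 to 9725 against the other hypothalamus (7119), 3462 to 10785 against the other brain (5558), 0 to 116 in the SCN rhythm (1, with 116 without ZT22), 4 to 754 in the other hypothalamus (70), 20 to 6649 in the gut (5892) and 21 to 9401 over the body (7610). Low depth limits NMU, GRP, VIPR2 and PROKR2 in the SCN, where single libraries held 0 to 4 reads.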
